A study of Arabidopsis thaliana with 16 samples.

Results

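Expression of 4 cold-regulated (COR) genes of Arabidopsis thaliana, COR15A (AT2G42540), COR15B (AT2G42530), COR27 (AT5G42900) and COR47 (AT1G20440), was described across light and steroid treatments on Affymetrix ATH1 arrays. The members were taken by name, each with its brightest probe set paired with that gene alone, and each of the 4 had exactly 1 such probe set among the 13355 genes measured this way. None was lost to a filter on low signal, since no such filter was used.

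The seedlings were 4 days old and all carried FHY3p:FHY3-GR in the fhy3-4 mutant, a transgene that makes the transcription factor FHY3 joined to the glucocorticoid receptor (GR) from FHY3's own promoter. The fusion protein enters the nucleus once dexamethasone (DEX) is given. The 4 groups, with 4 arrays each, were far-red light with 10 µM DEX, far-red light with mock (the ethanol solvent), darkness with 10 µM DEX and darkness with mock. The DEX or mock treatment lasted 2 h, and the length of the far-red exposure is not stated here. The series' design text calls the replicates independent and biological. No line without the fusion is among the samples, so nuclear FHY3-GR and DEX itself cannot be told apart. The labels name no temperature and no time of day.

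COR genes are named for their rise in the cold, where CBF transcription factors bind the promoters of many of them, and several also respond to abscisic acid and drought. COR15A and COR15B encode small hydrophilic proteins of the chloroplast stroma that protect membranes during freezing, COR47 encodes a dehydrin of the cytosol, and COR27 encodes a protein without such a protective role that acts with light signalling and the circadian clock. FHY3 acts in far-red light signalling through phytochrome A, where it raises the genes FHY1 and FHL, whose proteins carry phytochrome A into the nucleus. The level of FHY3 itself was not analysed here.

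Values are log2 signals, on which 1 unit is a doubling, as deposited after normalization between arrays. Within a group, pairs of arrays had correlations between 0.9956 and 0.9981 over all probe sets, and 0 arrays held the values of another. The 3′ minus 5′ signal of the ubiquitin control averaged 1.27 ± 0.06 in far-red DEX, 1.19 ± 0.05 in far-red mock, 1.21 ± 0.04 in dark DEX and 1.27 ± 0.01 in dark mock (SD, n = 4 each). On the dark mock arrays it ran from 1.26 to 1.28, above dark DEX (1.15 to 1.25) and far-red mock (1.13 to 1.24). The actin and GAPDH controls overlapped in both of these comparisons. The part of such differences in the changes below was not tested. Because whole seedlings were used, a change in the number of cells of a type and a change of RNA per cell cannot be told apart.

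Levels across the 4 groups are given first. COR15A had log2 signals of 9.49, 9.28, 9.40 and 9.47 in far-red DEX and 9.24, 9.02, 8.96 and 8.93 in far-red mock. In darkness its signals were 4.47, 4.28, 4.65 and 4.01 with DEX and 4.54, 4.13, 4.24 and 4.47 with mock. The far-red arrays were high and the dark arrays low without overlap, and within far-red every DEX array lay above every mock array, while in darkness the DEX and mock arrays overlapped.

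COR15B, the paralog next to COR15A on chromosome 2, showed the same split between far-red and dark arrays. Its signals were 8.56, 8.65, 8.44 and 8.46 in far-red DEX and 8.30, 8.17, 8.24 and 8.05 in far-red mock. In darkness they were 4.50, 4.36, 4.44 and 4.86 with DEX and 4.37, 4.53, 4.95 and 4.85 with mock. The far-red groups did not overlap each other or the dark arrays, and the dark groups overlapped.

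COR27 had signals of 9.62, 9.60, 9.64 and 9.69 in far-red DEX and 9.85, 9.60, 9.66 and 9.91 in far-red mock. Its dark signals were 6.24, 6.64, 6.10 and 6.08 with DEX and 6.40, 6.0, 6.29 and 6.58 with mock. COR27 was thus high in both far-red groups and low in both dark groups, with DEX and mock overlapping in each light.

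COR47 stood apart from the other members in its level and its pattern. It had signals of 14.11, 14.10, 14.17 and 14.15 in far-red DEX and 13.98, 14.02, 14.01 and 13.92 in far-red mock. In darkness they were 14.07, 14.01, 14.11 and 14.16 with DEX and 13.98, 14.05, 14.03 and 13.96 with mock. Its order ran far-red DEX, dark DEX, dark mock and far-red mock, and of the neighbours in that order each pair overlapped. Its probe set was brighter than 99.97% of all 22746 tested, against 51.7% for COR15A, 48.0% for COR15B and 69.4% for COR27.

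**Figure D1:**
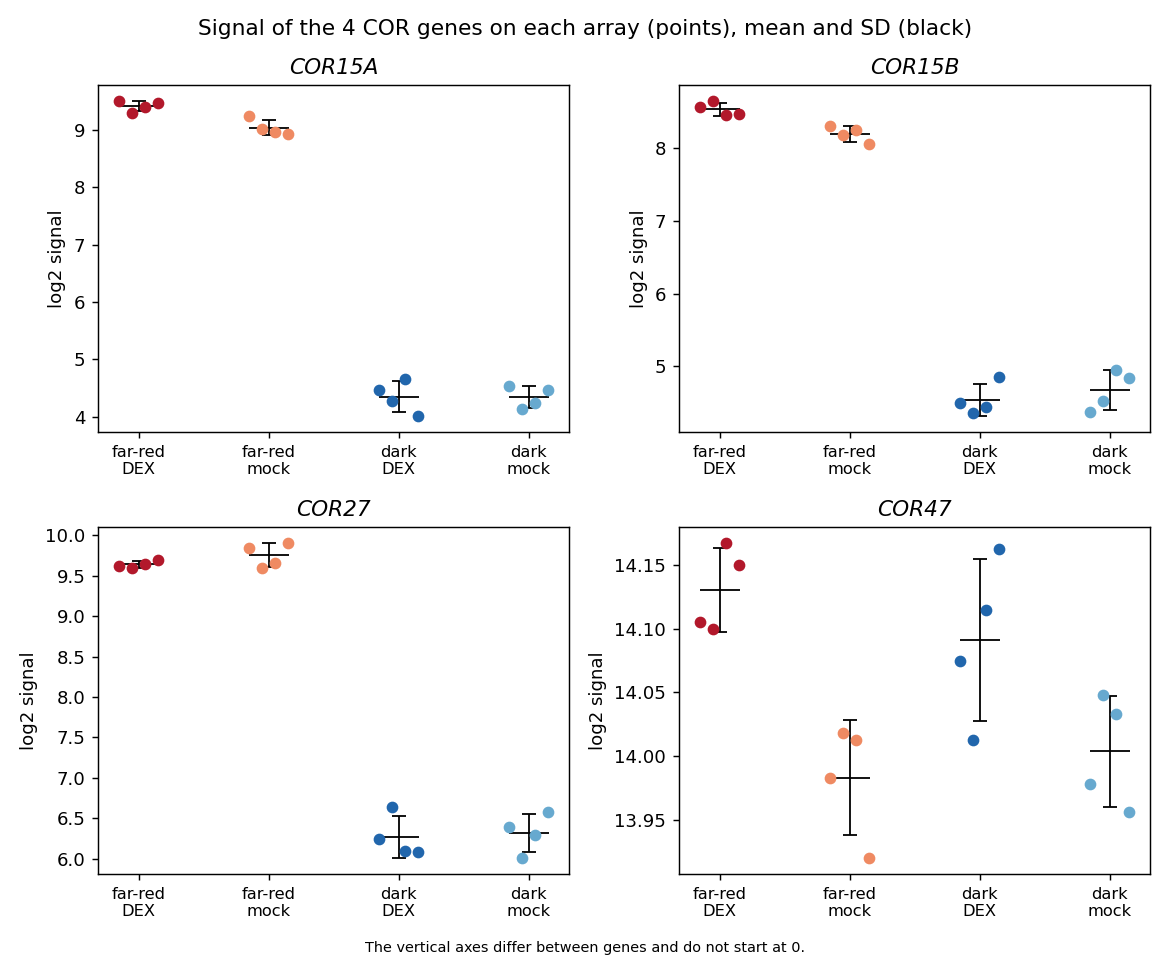
Log2 signal (vertical axis) of COR15A, COR15B, COR27 and COR47 on each of the 16 arrays by group (horizontal axis); points are arrays, the black bar is the mean and the whiskers the SD of 4 arrays. The panels of COR15A, COR15B and COR27 show far-red arrays far above dark arrays, while the COR47 panel spans only 13.92 to 14.17 and has the highest group mean, 14.13, in far-red DEX.

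Pooled over the 4 groups, the arrays of a group differed more for COR15A, COR15B and COR27 than for most transcripts, with SDs within groups of 0.19 for each, against a median of 0.12 over all probe sets. The spread was larger in darkness. In far-red DEX and far-red mock the SDs were 0.09 and 0.14 for COR15A, 0.09 and 0.11 for COR15B and 0.04 and 0.15 for COR27. In dark DEX and dark mock they were 0.28 and 0.19, 0.22 and 0.27, and 0.26 and 0.24. The test used below pools the spread of all 4 groups. COR47 had an SD within groups of 0.05, and 0.585% of probe sets had a smaller one. Of the total variation of COR15A over 16 arrays, light accounted for 99.3%, DEX for 0.152%, their interaction for 0.140% and the spread within groups for 0.443%. Light took 98.8% for COR15B and 99.0% for COR27. For COR47 light took 0.416% and DEX 63.8%, of a total spread that ran only from 13.92 to 14.17.

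The first comparison asks how far-red light changed the members when the fusion protein was kept out of the nucleus (mock). COR15A rose 25.9-fold, COR15B 11.4-fold and COR27 10.8-fold, and COR47 had a log2 change of -0.02 ± 0.06 (SE; adjusted p = 0.827). Of the 4 members 3 were higher and 0 lower at an adjusted p under 0.05, beside 17.8% of all probe sets higher, 20.8% lower and 38.6% called in either direction (limma over all 16 arrays, Benjamini-Hochberg adjustment over 22746 probe sets). The log2 change of COR15A, 9.04 ± 0.14 in far-red mock and 4.34 ± 0.19 in dark mock (SD, n = 4 each), was 4.69 ± 0.12 (adjusted p = 7.82e-17). For COR15B, at 8.19 ± 0.11 and 4.68 ± 0.27 in the same groups, it was 3.52 ± 0.12 (adjusted p = 6.17e-15), and for COR27, at 9.75 ± 0.15 and 6.32 ± 0.24, it was 3.43 ± 0.12 (adjusted p = 1.05e-14).

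Ordered by their rise, COR15A was at rank 1, COR15B at rank 5 and COR27 at rank 6 of the 13355 measured genes. Among all 22746 probe sets tested, unnamed ones included, they were at ranks 2, 13 and 14. Since the members were chosen with earlier results of these data known, their ranks and shares here and below are descriptions only. All 3 had every far-red array above every dark array, as did 16.1% of all probe sets (18.4% had every far-red array below), and all 3 had an unadjusted p under 0.05, beside 44.9%. The interval of COR47, -0.14 to 0.10 at 95%, describes the measured signal, and whether changes are compressed at the brightness of this probe set was not tested. The mean signal of COR15A in the dark groups lay under the lower quartile of every array, which ran from 4.38 to 4.50, and that of COR15B lay just above it. The files give no background signal, so the folds of both genes are lower limits if their dark signals came from background.

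Under DEX the same light comparison gave a log2 change of 5.06 ± 0.12 for COR15A (33.3-fold, adjusted p = 2.25e-17), 3.99 ± 0.12 for COR15B (15.9-fold, adjusted p = 6.42e-16) and 3.37 ± 0.12 for COR27 (10.4-fold, adjusted p = 1.15e-14). COR47 changed by 0.04 ± 0.06 (adjusted p = 0.654). Again 3 of 4 members were higher, beside 17.5% of all probe sets higher, 22.2% lower and 39.7% called. The arrays of the same 3 were apart, beside 17.4% of probe sets apart and higher and 22.4% apart and lower, and the same 3 had an unadjusted p under 0.05, beside 45.5%. COR15A ranked 1, COR15B 5 and COR27 9 among the 13355 genes, and 2, 13 and 24 among all probe sets tested. This comparison shares no array with that under mock.

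**Figure D2:**
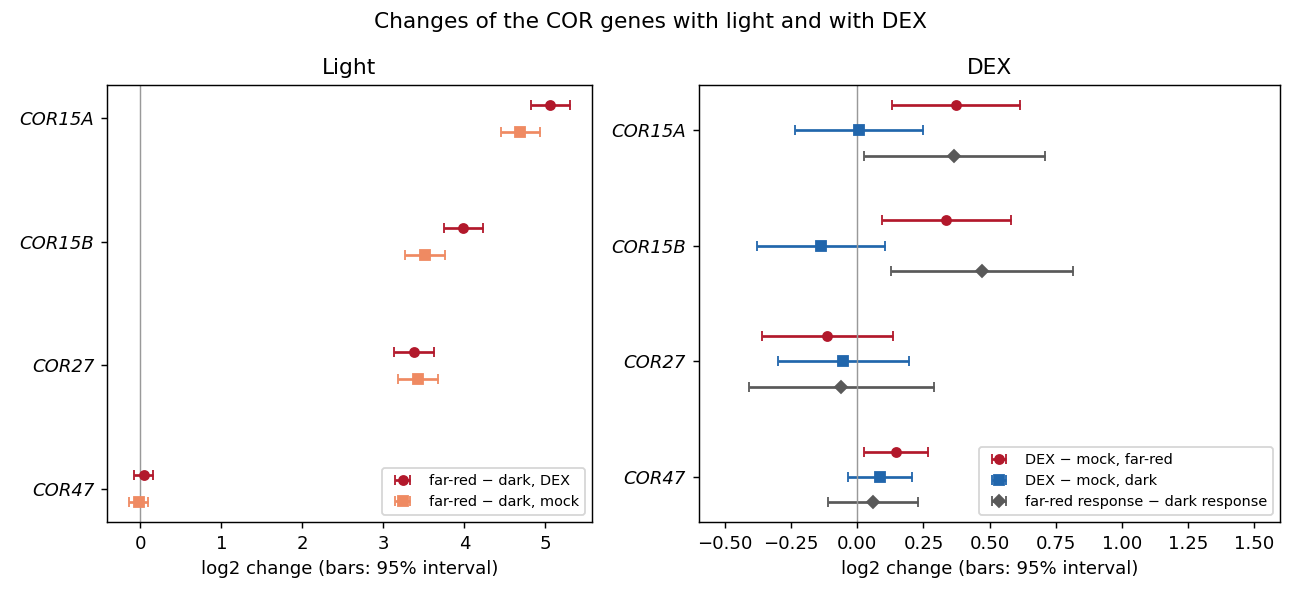
Log2 changes (horizontal axis) of the 4 COR genes with light (left) and with DEX (right), with 95% intervals from the fit over 16 arrays. COR15A, COR15B and COR27 lie between 3.37 and 5.06 for light, COR47 lies near 0, and the DEX changes lie between -0.14 and 0.37, with the intervals of COR15A, COR15B and COR47 in far-red wholly right of 0. The right panel also shows the far-red response minus the dark response, from -0.06 for COR27 to 0.47 for COR15B, with the intervals of COR15A and COR15B wholly right of 0. The intervals are not adjusted for the number of probe sets, and none of the changes in the right panel was called.

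The paralogs COR15A and COR15B were then compared for the size of their light response. On each array the signal of COR15B was taken from that of COR15A, and the change of this difference between groups was tested, so that only responses and no levels were compared. The measured light change of COR15A exceeded that of COR15B by 1.18 ± 0.19 on the log2 scale under mock and by 1.07 ± 0.25 under DEX (SE). The exact two-sided permutation p was 0.0286 in both, the smallest that 4 against 4 arrays allow, and 0.0571 after Benjamini-Hochberg adjustment over the 4 comparisons made, so the difference did not pass after adjustment. With the dark signals of both genes near the lower quartile of the arrays, both folds may be lower limits, and then neither the size nor the direction of their difference is known. The difference was larger on every far-red array than on every dark array in both comparisons. Their DEX responses differed by 0.04 ± 0.10 in far-red (exact permutation p = 0.686) and by 0.14 ± 0.30 in darkness (exact permutation p = 0.657). Whether the probes of one paralog also bind the transcript of the other was not tested. The light changes of COR15B and COR27 under mock have overlapping intervals, 3.27 to 3.76 and 3.19 to 3.68, and their difference was not tested.

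In far-red light the 2 h of DEX moved COR15A by 0.37 ± 0.12 on the log2 scale (1.3-fold; unadjusted p = 0.00434, adjusted p = 0.195 by limma) and COR15B by 0.34 ± 0.12 (1.26-fold; unadjusted p = 0.00931, adjusted p = 0.271). COR47 moved by 0.15 ± 0.06 (1.11-fold; unadjusted p = 0.0192, adjusted p = 0.357) and COR27 by -0.11 ± 0.12 (adjusted p = 0.826). By limma 0 of 4 members were called, beside 1.04% of all probe sets (0.919% higher and 0.119% lower), and 3 of 4 had an unadjusted p under 0.05, beside 10% of all probe sets. For the same 3 genes every DEX array lay above every mock array, which held for 3.14% of all probe sets, while 3.27% lay below on every DEX array.

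These values did not pass the test, and their intervals at 95% were 0.13 to 0.62 for COR15A, 0.09 to 0.58 for COR15B, 0.03 to 0.27 for COR47 and -0.36 to 0.13 for COR27. In size the change of COR15A ranked 132 and that of COR15B 179 among the 13355 genes. The 3′ minus 5′ signal of ubiquitin was 1.19 to 1.35 on the far-red DEX arrays and 1.13 to 1.24 on the far-red mock arrays, while that of GAPDH averaged 0.998 ± 0.152 in far-red DEX and 1.16 ± 0.09 in far-red mock, and that of actin 1.44 ± 0.11 in far-red DEX and 1.41 ± 0.12 in far-red mock (SD, n = 4 each). Their part in these values was not tested.

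In darkness no member moved with DEX beyond the spread of the arrays. By limma 0 of 4 were called, beside 5.9% of all probe sets (2.34% higher and 3.56% lower), and 0 of 4 had an unadjusted p under 0.05, beside 16.3%. The arrays overlapped for all 4, while they were apart and higher for 5.01% of probe sets and apart and lower for 5.6%. The log2 changes were 0.01 ± 0.12 for COR15A (adjusted p = 0.988), -0.14 ± 0.12 for COR15B (adjusted p = 0.646), -0.05 ± 0.12 for COR27 (adjusted p = 0.895) and 0.09 ± 0.06 for COR47 (adjusted p = 0.514). For COR15A the interval was -0.23 to 0.25, which still allows a change of up to 1.19-fold in the measured signal. With the dark signals of COR15A and COR15B near the lower quartile of the arrays, a fall may not have been detectable. A rise of either transcript may likewise be larger than the measured one.

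**Figure D3:**
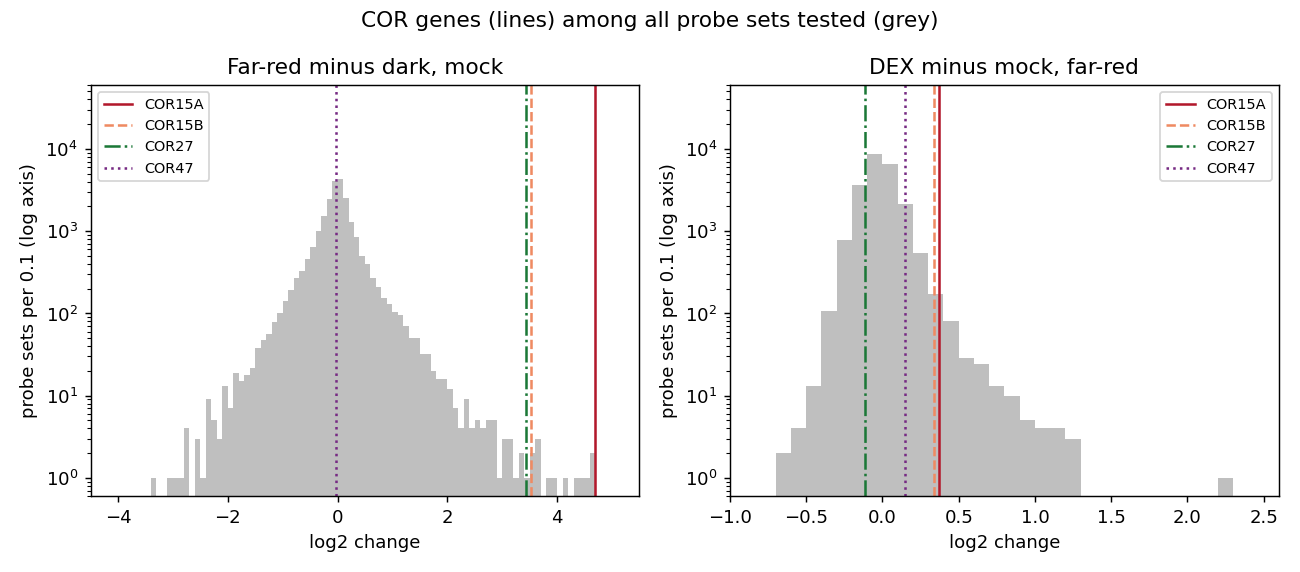
Numbers of probe sets (vertical log axis) by log2 change in steps of 0.1 (horizontal axis), for far-red minus dark under mock (left) and DEX minus mock in far-red (right); the lines mark the 4 COR genes. On the left COR15A, COR15B and COR27 lie at 4.69, 3.52 and 3.43 in the upper tail and COR47 in the centre, and on the right COR15A and COR15B lie at 0.37 and 0.34, inside the upper flank.

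How much the response to DEX differed between the lights was tested directly, as the far-red response minus the dark one, which equals the light response under DEX minus that under mock. It was 0.47 ± 0.16 for COR15B (unadjusted p = 0.0096, adjusted p = 0.181), 0.37 ± 0.16 for COR15A (unadjusted p = 0.0373, adjusted p = 0.345), 0.06 ± 0.08 for COR47 (adjusted p = 0.84) and -0.06 ± 0.17 for COR27 (adjusted p = 0.933). By limma 0 of 4 members were called, beside 2.15% of all probe sets (1.7% higher and 0.448% lower), and 2 of 4 had an unadjusted p under 0.05, beside 12.6%. The responses of the COR15 pair in the 2 lights are therefore not shown to differ after adjustment. Both differences also rest on dark signals near the lower quartile of the arrays, where a change may be understated or missed.

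Other genes of the cold response were taken from a list of 34 cold-responsive genes, of which 7 were measured here, the 4 members among them. The remaining 3 were LTI30, a dehydrin made at low temperature and the gene also known as XERO2, TIL, a lipocalin induced by temperature, and AT4G33980, which has no symbol in the annotation used. The list, written from memory, names AT4G33980 as COR28, so a further COR gene may be among these 3. Under mock 2 of the 3 rose in far-red, beside 17.8% of all probe sets higher, and the median log2 change was 0.84 for the 3 and 1.08 for all 7 genes, beside -0.00 over all probe sets. AT4G33980 rose by 1.08 ± 0.08 (adjusted p = 6.69e-10) and TIL by 0.84 ± 0.10 (adjusted p = 1.21e-06), while LTI30 had a log2 change of 0.04 ± 0.11 (adjusted p = 0.845). LTI30, like COR47, was bright in all 4 groups and did not pass for light, with group means between 12.54 and 12.95.

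With DEX, AT4G33980 and TIL fell in darkness. AT4G33980 had signals of 8.70, 8.73, 8.69 and 8.73 in dark DEX, against 9.59, 9.28, 9.52 and 9.52 in dark mock, and fell by 0.77 on the log2 scale (SE 0.08, adjusted p = 1.3e-06). TIL had signals of 11.15, 11.23, 11.37 and 11.06 in dark DEX, against 12.23, 11.64, 11.88 and 12.10 in dark mock, and fell by 0.76 (SE 0.10, adjusted p = 3.87e-05). For both genes the DEX arrays lay below all mock arrays. In far-red they had log2 changes of 0.00 ± 0.08 and 0.13 ± 0.10, and the difference of responses was called for both, at 0.77 ± 0.11 for AT4G33980 (adjusted p = 0.000361) and 0.89 ± 0.15 for TIL (adjusted p = 0.00118).

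LTI30 had signals of 12.92, 12.90, 12.94 and 13.02 in far-red DEX, against 12.63, 12.60, 12.58 and 12.48 in far-red mock, a log2 change of 0.37 ± 0.11 (adjusted p = 0.16). Its change in darkness was 0.34 ± 0.11 (adjusted p = 0.0758), and its arrays were apart in far-red and overlapped in darkness. In darkness LTI30 was called when dark DEX replicate 2 was left out (adjusted p = 0.0252) and when dark mock replicate 2 was (adjusted p = 0.0102), and in far-red it was called with only the far-red arrays fitted (adjusted p = 0.0148). Of the 7 cold-responsive genes, 2 fell and 0 rose with DEX in darkness, beside 3.56% of all probe sets lower and 2.34% higher, and 0 were called in far-red, beside 1.04%.

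**Figure D4:**
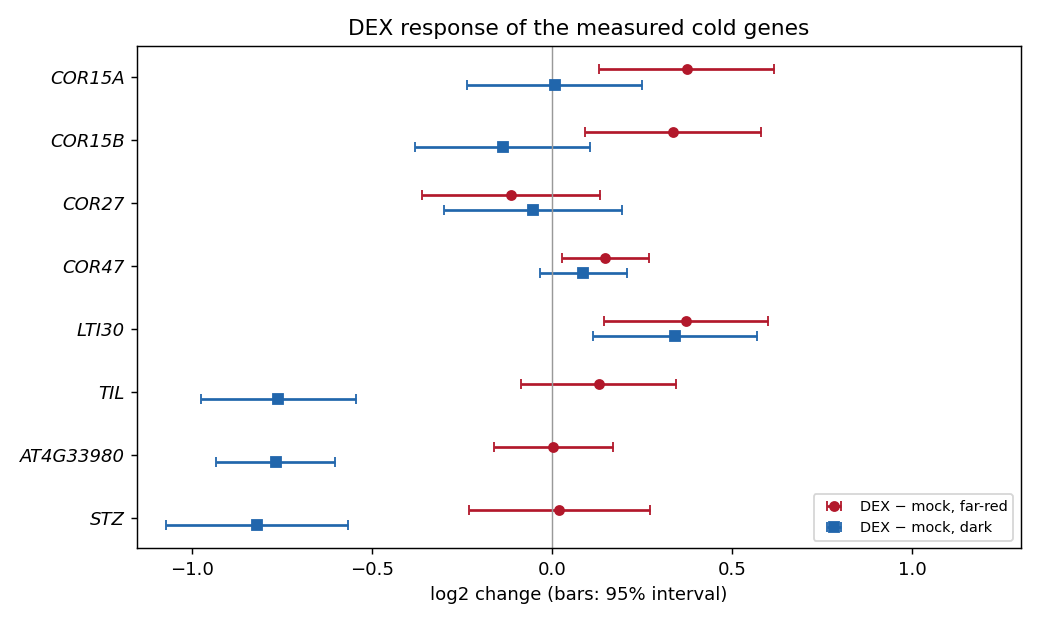
Log2 change with DEX (horizontal axis) in far-red (red circles) and in darkness (blue squares) for the 7 measured cold-responsive genes and STZ, with 95% intervals from the fit over 16 arrays. TIL, AT4G33980 and STZ lie between -0.82 and -0.76 in darkness and near 0 in far-red, while COR15A, COR15B, COR27 and COR47 have dark intervals that include 0.

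Of 18 listed regulators of the cold response, STZ alone was measured, a zinc finger repressor also known as ZAT10 that is induced by cold and other stresses. It rose in far-red by 0.84 ± 0.12 under mock (adjusted p = 8.47e-06) and by 1.68 ± 0.12 under DEX (adjusted p = 3.82e-10). With DEX it fell by 0.82 in darkness (SE 0.12, adjusted p = 0.000108) and had a log2 change of 0.02 ± 0.12 in far-red, and its 2 responses differed by 0.84 ± 0.17 (adjusted p = 0.00845). The CBF genes were not analysed here.

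For the light and clock side of COR27, HYH was the 1 gene measured of 21 listed for light signalling, a bZIP factor that acts with HY5 in light-grown seedlings. HYH rose in far-red by 2.19 ± 0.11 under mock (adjusted p = 1.92e-12) and by 2.18 ± 0.11 under DEX (adjusted p = 1.9e-12), and with DEX it had log2 changes of 0.04 ± 0.11 in far-red and 0.05 ± 0.11 in darkness. GI was the 1 gene measured of 23 listed for the circadian clock. It had log2 changes with light of 0.04 ± 0.06 under mock (adjusted p = 0.625) and 0.14 ± 0.06 under DEX (adjusted p = 0.047), and the call under DEX ended under 3 other settings and when any of 14 arrays was left out (adjusted p up to 0.119).

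Among 5 listed targets of FHY3, FHL and HEMB1 were measured. FHL fell with DEX by 0.98 in darkness (SE 0.13, adjusted p = 2.49e-05) and had a log2 change of -0.31 ± 0.13 in far-red (unadjusted p = 0.0238, adjusted p = 0.39 by limma). In far-red its DEX and mock arrays were apart. The far-red response of FHL minus its dark response was 0.66 ± 0.18 and was not called (adjusted p = 0.0612 by limma). For this difference 1 target was called with quantile normalization, with array weights and without dark mock replicate 2. The lowest interval bound among the 4 COR genes in darkness was -0.38, for COR15B. As the dark signals of COR15A and COR15B were near the lower quartile of the arrays, a fall of either may not have been detectable. HEMB1, an enzyme of tetrapyrrole synthesis, rose in far-red by 0.38 ± 0.06 under mock (adjusted p = 3.14e-05). With DEX it had log2 changes of -0.03 ± 0.06 in darkness (adjusted p = 0.867) and 0.03 ± 0.06 in far-red (adjusted p = 0.907). Neither FHL nor HEMB1 was called higher with DEX, beside 2.34% of all probe sets in darkness and 0.919% in far-red.

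The protein families of the members were followed in 2 further lists. Of 10 dehydrin genes 6 were measured, COR47 and LTI30 among them, and 2 rose and 1 fell in far-red under mock, beside 17.8% of all probe sets higher and 20.8% lower. For DEX 0 of the 6 were called, beside 1.04% in far-red and 5.9% in darkness. LEA rose by 0.67 ± 0.17 (adjusted p = 0.00339), AT4G39130 by 0.46 ± 0.11 (adjusted p = 0.00214) and AT1G54410, also known as HIRD11, fell by 0.29 (SE 0.07, adjusted p = 0.00289). AT4G39130 was dim, with group means between 3.96 and 4.51. With the dimmest 25% of probe sets left out, 1 dehydrin rose and 1 fell in far-red under mock. Of 15 other genes listed as late embryogenesis abundant, a family of protective hydrophilic proteins to which the COR15 proteins are also assigned, 11 were measured. In far-red under mock 10 of the 11 rose and 0 fell, beside 17.8% of all probe sets higher and 20.8% lower, with a median log2 change of 0.81, beside -0.00 over all probe sets. With the dimmest 25% left out, 9 of these genes rose and 0 fell.

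The 4 with the smallest p were AT3G02480, with a rise of 0.97 ± 0.07, LEA4-5 with 0.90 ± 0.09, LEA18 with 0.91 ± 0.11 and AT3G15670 with 1.08 ± 0.14. With DEX in darkness 5 of 11 fell and 0 rose, beside 3.56% of all probe sets lower and 2.34% higher. The count was 4 when replicate 1 of dark DEX was left out, and likewise for replicate 1 of dark mock, since AT4G21020 then lost its call (adjusted p up to 0.0579). The count was 6 when dark DEX replicate 2, dark mock replicate 3 or far-red mock replicate 4 was left out. LEA18 fell by 0.75 (SE 0.11, adjusted p = 0.000158) and LEA4-5 by 0.57 (SE 0.09, adjusted p = 0.000226). In far-red 0 of 11 were called, beside 1.04%.

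Genes listed as markers of green tissue rose with light, and more green tissue cannot be told apart from more RNA of these genes per cell. Of 10 listed 4 were measured, RCA, SBPASE, PSAN and PRK, and all 4 rose in far-red under mock, by 1.46, 1.19, 1.91 and 0.62 on the log2 scale, beside 17.8% of all probe sets higher. Their summed signal had a log2 value of 14.19 to 14.28 in far-red mock, against 12.74 to 13.01 in dark mock, and of 14.24 to 14.30 in far-red DEX, against 12.87 to 13.04 in dark DEX. Of 10 root markers 2 were measured, EXPA7 and EXPA18, and 0 were called for light, with a summed signal of 6.45 to 6.87 in far-red mock and 5.94 to 6.59 in dark mock. EXPA18 had a log2 change of 0.39 ± 0.16 under mock (adjusted p = 0.0549), and 1 root marker was called higher there under 5 of 6 other settings and in 6 of 16 fits that left out 1 array. No marker is at 0 on this scale, and the part of these tissues in the light response of the COR genes was not tested. The green markers were not called for DEX in either light.

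The neighbours of the COR15 pair on chromosome 2 were looked up after the members' values had been seen. No gene starts between COR15B and COR15A in the RefSeq annotation of TAIR10.1. The protein-coding gene next to the pair on the COR15B side, AT2G42520, had a log2 change of -0.22 in far-red under mock (adjusted p = 0.0547). On the COR15A side AT2G42560, the first measured gene, rose by 0.47 (adjusted p = 0.0015).

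The genes whose pattern over the 4 groups was most like that of each member were ranked by the root mean square difference of the group means, each gene centred on its own mean. For COR15A these were AT3G57020 (0.33 on the log2 scale), AT3G28220 (0.33) and COR15B (0.56). AT3G28220 had group means of 9.19 in far-red DEX, 8.68 in far-red mock, 4.69 in dark DEX and 4.72 in dark mock. COR15B was nearest to AT2G43620 (0.14), AT1G15010 (0.20) and the jasmonate-regulated gene JRG21 (0.23), and COR27 was its rank 4 (0.24).

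COR27 was itself nearest to AT2G43620 (0.10), JRG21 (0.14) and AT2G29360 (0.15). From COR27 the COR15 genes were at ranks 6 (COR15B) and 44 (COR15A). COR47 was nearest to AT1G02470, AT4G27380 and AT3G49990, each at 0.01. The group means of COR47 ran only from 13.98 to 14.13, so genes that changed little lie near it. Its nearest genes had SDs within groups of 0.05 to 0.23, above these distances. These likenesses describe 4 group means of the same arrays and carry no test.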

How the data were processed

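The authors deposited log2 signals per probe set for 16 arrays, and per the submitters' processing notes RMA and the affy package were used, with versions, settings and filters not given in the sources used here. Because the deposited log2 values were normalized between arrays, a shift shared by every transcript is not visible. Columns were tied to samples by accession and 0 value columns were left unused. Groups and replicate numbers come from the sample titles.

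Of 22810 probe sets, 64 manufacturer controls were left out and 22746 were tested; 13513 are paired with 1 gene, 503 with several and 8730 are unnamed here. Names come from the platform annotation and RefSeq's TAIR10.1 table, in which 13436 matched.

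A mean per group was fitted over 16 arrays in limma 3.58.1 (R 4.3.3; lmFit and eBayes, 19.65 degrees of freedom), with two-sided tests and Benjamini-Hochberg adjustment over all probe sets, called under 0.05. After ± stands the SE of a change or the SD of a level, n = 4. Intervals are at 95%. The model was tested on simulated data. The number of arrays limits the precision.

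The members and lists were chosen with earlier results of these data known. The 10 lists hold 175 loci written from memory, of which 33 were measured. Named genes were the members, called genes of the cold, clock and FHY3 target lists, up to 4 of the other lists and 3 genes most like each member; LTI30 was named after its values were seen. No member has a further probe set, so that alternative was not run. Figures were drawn with matplotlib 3.10.9.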

Additional observations from a re-analysis of the deposited data

Results flagged for a closer look

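The DEX response differed between far-red and darkness, by the test of the difference itself, for 2 of the 7 cold-responsive genes measured, the 1 cold regulator and 2 of the 11 late embryogenesis genes, beside 1.7% of all probe sets higher and 2.15% called. None of the 4 COR genes was called by limma, and 2 of them had an unadjusted p under 0.05. The difference, far-red minus dark, was 0.77 for AT4G33980, 0.89 for TIL, 0.84 for STZ, 0.61 for LEA4-5 (adjusted p = 0.0106) and 0.65 for LEA18 (adjusted p = 0.037) on the log2 scale. The call of LEA18 ended when any of 11 of the 16 arrays was left out, with an adjusted p up to 0.0882. No array stood apart within its group by Dixon's criterion among the 28 groups of 4 arrays tested for the 7 cold-responsive genes, where chance flags about 1 group in 20.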

How the results depend on the processing

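Over 7 kinds of alternative setting (variance prior, only the groups compared, quantile normalization, array weights, no dim probe sets, replicate block and leaving out 1 array), every call of the 4 COR genes stayed on its side of the threshold. Changes that were not called crossed 0 when 1 array was left out: COR15A with DEX in darkness ran from -0.0931 to 0.122, COR27 with DEX in darkness from -0.177 to 0.0337, the difference of responses of COR27 from -0.15 to 0.0637 and COR47 with light under mock from -0.0366 to 0.00043. The same held for AT4G33980 (-0.0506 to 0.0472) and STZ (-0.041 to 0.146) with DEX in far-red, and for LTI30 with light under mock (-0.0501 to 0.137), with light under DEX (-0.0194 to 0.174) and for its difference of responses (-0.0725 to 0.139). AT4G33980 with DEX in far-red was -0.0054 with array weights, and LTI30 with light under mock was -0.0345 with quantile normalization. GI with DEX in far-red ran from -0.024 to 0.0088 (0.0023 with array weights), and HYH from -0.0500 to 0.121 with DEX in darkness, from -0.0475 to 0.101 in far-red and from -0.0987 to 0.0941 for its difference of responses (0.039 with array weights). The cause was not tested. For DEX in far-red the adjusted p ran from 0.0551 to 0.423 for COR15A and from 0.0701 to 0.494 for COR15B, lowest when only the far-red arrays were fitted. Quantile normalization gave COR47 a log2 change of 0.03 with DEX in darkness. The light response of COR15A minus that of COR15B under mock was 1.05 to 1.34 with 1 array left out, with an exact permutation p of 0.0571 without far-red mock replicate 1 or 4; for DEX in far-red the difference ran from -0.0038 to 0.12. Same-numbered arrays shared little beyond the number, with a correlation of deviations over 0.1 in 7 of 24 pairs, and the replicate block gave 236 calls for DEX in far-red, as without it, and log2 changes of the members equal to those reported, with an adjusted p of 0.136 for COR15A there. It changed no call of a member and ended that of GI.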
